A study of Mus musculus with 8 samples.

Results

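Catalase (*Cat*) and the 3 superoxide dismutases (*Sod1*, *Sod2* and *Sod3*) were taken as the rows of the count table that carry these 4 gene symbols, out of 32390 rows in all. Each symbol stood on a single row, and all 4 genes had enough counts to be tested among the 12725 rows that passed the filter on low counts. The table comes from bulk RNA sequencing (RNA-seq) of gastrocnemius, a calf muscle, of 4 control mice (*Nox4* fl/fl) and 4 NOX4-deficient mice (*Mck*-Cre;*Nox4* fl/fl). All 8 mice were male, carried the floxed *Nox4* allele, ate standard low-fat chow and were 21 months old by the sample labels, which give a single batch for all samples. The *Mck* promoter drives Cre mostly in skeletal muscle and less in heart, so other cells of the muscle keep *Nox4*. NOX4 is an NADPH oxidase that releases hydrogen peroxide, and the comparison asks how the genes that make and remove peroxide stand in muscle fibers without it.

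Superoxide dismutases turn superoxide into hydrogen peroxide, and catalase breaks hydrogen peroxide down to water and oxygen. SOD1 is the copper-zinc enzyme of the cytosol and the space between the mitochondrial membranes, SOD2 is the manganese enzyme of the mitochondrial matrix, and SOD3 is the secreted copper-zinc enzyme. Catalase is a heme enzyme that resides mostly in peroxisomes, whereas glutathione peroxidases and peroxiredoxins remove peroxide in other compartments at the expense of thiols.

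The libraries held 16350548 to 19804661 counts in control and 16628305 to 19216987 in NOX4-deficient mice, and the levels below are CPM, counts scaled to library size with TMM factors, which ran from 0.944 to 1.043. Errors are SDs over 4 mice unless stated otherwise. Fast fiber markers made up 129131 to 164500 CPM of every library, and none of the 8 listed (*Myh4*, *Actn3* and others) was called by edgeR, DESeq2 or pydeseq2, with 0 at an unadjusted p under 0.05. *Nox4* itself was low, at 5.09, 2.47, 1.87 and 3.64 CPM in control replicates 1 to 4 and 1.74, 2.17, 2.21 and 2.17 CPM in NOX4-deficient replicates 1 to 4. Its groups overlapped and the log2 fold change of -0.65 had a standard error of 0.29 (adjusted p = 0.207 in edgeR), so its transcript level does not by itself separate the genotypes here. The difference in mean *Nox4* level was -1.20 CPM, and -0.59 CPM without control replicate 1.

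The regions just upstream of the genes are shown because *Cat* fell in NOX4-deficient muscle and no *Sod* gene passed the test. RefSeq (GRCm38.p6) gives a start site window for *Cat*, *Sod1* and *Sod2*, and the 250 bases before each start are printed 5′ to 3′ on the gene's strand. Capitals mark the CCAAT box (CCAAT) and the GC box (GGGCGG), each on either strand.
Cat (chr2:103485154-103485403, minus strand): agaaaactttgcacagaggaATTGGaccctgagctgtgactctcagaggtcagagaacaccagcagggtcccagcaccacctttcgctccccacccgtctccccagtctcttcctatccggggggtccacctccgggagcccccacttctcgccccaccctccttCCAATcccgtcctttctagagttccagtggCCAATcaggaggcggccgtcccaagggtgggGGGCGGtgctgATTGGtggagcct
Sod1 (chr16:90220512-90220761, plus strand): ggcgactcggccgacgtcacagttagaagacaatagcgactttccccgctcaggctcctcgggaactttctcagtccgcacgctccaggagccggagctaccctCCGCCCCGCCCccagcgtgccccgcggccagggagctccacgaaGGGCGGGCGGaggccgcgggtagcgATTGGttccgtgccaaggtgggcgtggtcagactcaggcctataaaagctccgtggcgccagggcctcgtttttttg
Sod2 (chr17:13007589-13007838, plus strand): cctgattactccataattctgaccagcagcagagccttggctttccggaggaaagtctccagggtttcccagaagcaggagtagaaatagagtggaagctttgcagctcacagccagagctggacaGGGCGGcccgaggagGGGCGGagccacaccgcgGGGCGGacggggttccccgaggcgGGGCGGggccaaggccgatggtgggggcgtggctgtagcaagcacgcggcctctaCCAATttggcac
In these windows *Cat* had 4 CCAAT boxes, which began at positions -230, -85, -55 and -13 from the start, and 1 GC box at -24. *Sod1* and *Sod2* showed the opposite make-up, with 1 CCAAT box and 4 GC boxes each, and in *Sod1* the 4 GC boxes form overlapping pairs. Over 32851 windows of the same length, 33.9% held a CCAAT box and 0.840% held at least 4, whereas 32.7% held a GC box and 4.09% at least 4. The core of the antioxidant response element, the site bound by NFE2L2, was searched as TGACNNNGC on both strands. It matched once in *Sod1*, at -56, and not in *Cat* or *Sod2*, where 10.2% of all windows held it. The letters TGTTTAC of a FOXO site were in none of the 3 windows (3.17% of all), and the TATA box (TATAAA) was in *Sod1* only, at -37 (12.4% of all). All 3 windows were rich in G and C, at 62.0% in *Cat*, 66.4% in *Sod1* and 63.6% in *Sod2*. A match of letters is a description of the sequence and says nothing of binding in these samples.

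Of the 4 genes, 1 was called lower (adjusted p under 0.05 and a log2 fold change under -0.5) and 0 higher. Over all rows tested, 3.48% were called lower and 6.16% in either direction. The groups did not overlap, with NOX4-deficient mice lower, in 1 of the 4 genes and in 8.97% of all rows. With 4 genes these counts only locate *Cat*, and they say nothing of the family as a group. Without adjustment none of the *Sod* genes reached 0.05 in edgeR either (unadjusted values of 0.117 for *Sod1*, 0.935 for *Sod2* and 0.805 for *Sod3*), and neither DESeq2 nor pydeseq2 called any of them.

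*Cat*, the gene called lower, had 216, 219, 184 and 200 CPM in control against 82.0, 74.0, 76.1 and 97.7 CPM in NOX4-deficient replicates 1 to 4. All 4 NOX4-deficient libraries lay below every control library, and the lowest control was 1.88 times the highest NOX4-deficient library. The means were 205 ± 16.1 and 82.5 ± 10.7 CPM (SD, n = 4 each), and *Cat* was 2.49-fold lower, with a 95% interval of 2.10 to 2.94. On the log2 scale this was -1.31 with a standard error of 0.11 (edgeR's quasi-likelihood test, Benjamini-Hochberg adjusted p = 5.54e-05 over 12725 rows). Only 10 of these rows had a smaller p-value, and 105 had a larger fall on the log2 scale. Most of those 105 were less abundant, since among the 816 rows with at least the mean CPM of *Cat*, 12 fell further.
Counting alone gave *Cat* a coefficient of variation of 1.53% to 2.71% per library, below the 7.87% among control and 13.0% among NOX4-deficient mice, so the spread is mostly between mice or samples. In bulk muscle, fewer cells of a type and less RNA per cell cannot be told apart. When any single library was left out, *Cat* stayed called, at log2 fold changes from -1.39 to -1.26.

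**Figure D1:**
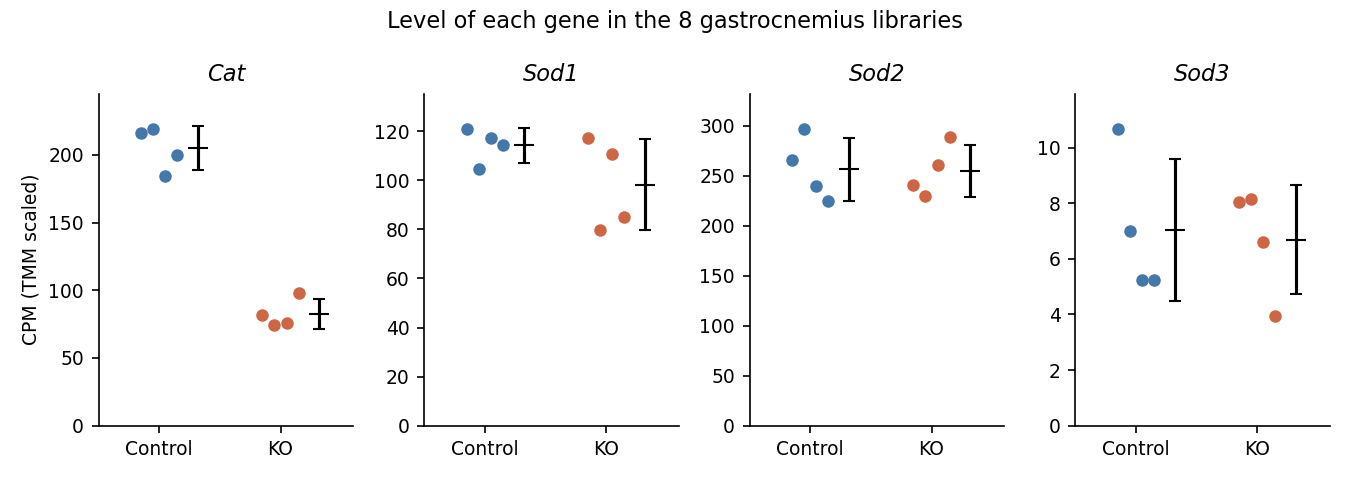
Level of *Cat*, *Sod1*, *Sod2* and *Sod3* (y axis, TMM-scaled CPM, each panel with its own scale from 0) in control and NOX4-deficient (KO) muscle. Each point is 1 library in the order of its replicate number, and the black bars give the mean ± SD of 4. For *Cat* the KO points (74.0 to 97.7 CPM) all lie under the control points (184 to 219 CPM), and for the other 3 genes the groups overlap.

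*Sod1* had 121, 105, 117 and 114 CPM in control against 117, 79.9, 111 and 84.9 CPM in NOX4-deficient replicates 1 to 4. NOX4-deficient replicates 2 and 4 were below every control library, whereas replicates 1 and 3 lay within the control range. The coefficient of variation was 6.15% in control and 19.0% in NOX4-deficient mice, and this difference in spread was not tested. When odd and even replicate numbers, which stood apart in an earlier look at these data, were fitted as a term, the edgeR adjusted p of *Sod1* was 0.115 and that of *Cat* stayed under the threshold. The means were 114 ± 7.02 and 98.2 ± 18.6 CPM (SD, n = 4 each), and the log2 fold change of -0.22 had a standard error of 0.13 and a 95% interval of -0.50 to 0.06 (edgeR adjusted p = 0.344). Without NOX4-deficient replicate 2 it was -0.13, without replicate 4 of that group -0.14, and without replicate 1 -0.30. On the opposite strand *Sod1* overlaps *Scaf4* in the GENCODE vM21 annotation. The libraries are unstranded, so reads in the overlap cannot be told apart, and *Scaf4* had at most 514 counts in any library, against 1448 to 2200 for *Sod1*. The log2 fold change of *Scaf4* was -0.48 (edgeR adjusted p = 0.0949), in the same direction as that of *Sod1*, and its part in the *Sod1* value was not tested.

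*Sod2* was the *Sod* gene with the most counts and the narrowest interval. It had 266, 297, 239 and 225 CPM in control against 241, 229, 261 and 288 CPM in NOX4-deficient replicates 1 to 4. The ranges lie almost on top of each other, and the means were 257 ± 31.6 and 255 ± 25.8 CPM (SD, n = 4 each). Their log2 fold change of -0.01 had a standard error of 0.11 (edgeR adjusted p = 0.975), and the 95% interval of the ratio was 0.836 to 1.18. A fall as large as that of *Cat* lies outside this interval, but a change of up to 18.1% upward or 16.4% downward lies within it.

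*Sod3* was the scarcest of the 4, with 67 to 178 counts per library. It had 10.7, 7.0, 5.24 and 5.25 CPM in control against 8.06, 8.14, 6.62 and 3.93 CPM in NOX4-deficient replicates 1 to 4. Control replicate 1 was the highest library and NOX4-deficient replicate 4 the lowest, and the others overlapped. The means were 7.04 ± 2.56 and 6.69 ± 1.97 CPM (SD, n = 4 each), and the log2 fold change of -0.07 had a standard error of 0.27 and a 95% interval of -0.65 to 0.52 (edgeR adjusted p = 0.916). At this depth counting error alone was 7.50% to 12.2% per library, and a difference inside that interval was not detectable. Its sign rested on single libraries, since the log2 fold change was 0.20 without control replicate 1 and 0.13 without NOX4-deficient replicate 4.
SOD3 is secreted, and connective tissue cells are among its sources, so fibroblast and tendon markers were set beside it. Their summed level was 715, 724, 514 and 420 CPM in control against 634, 711, 696 and 435 CPM in NOX4-deficient replicates 1 to 4. The 3 libraries with the least *Sod3*, NOX4-deficient replicate 4 and control replicates 3 and 4, were also the 3 with the lowest sums. None of the 8 markers was called by edgeR (3 were higher at an unadjusted p under 0.05), 1 was called higher by DESeq2 and 0 by pydeseq2, and their part in the level of *Sod3* was not tested.

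The ratio of *Cat* to each *Sod* gene within a library needs no scaling between libraries. *Cat* had 0.814, 0.739, 0.770 and 0.890 counts per count of *Sod2* in control and 0.340, 0.323, 0.292 and 0.339 in NOX4-deficient replicates 1 to 4. The 2 groups lay far apart, and the mean log2 ratio went from -0.32 ± 0.12 to -1.63 ± 0.10 (SD, n = 4 each). Against *Sod1* the ratio was 1.57 to 2.10 in control and 0.687 to 1.15 in NOX4-deficient libraries, also without overlap, and the mean log2 ratio was lower by 1.08, from 0.84 ± 0.17 to -0.24 ± 0.36. Against *Sod3*, whose counts are low, the ranges of 20.3 to 38.1 and 9.09 to 24.9 overlapped. Against the 3 *Sod* genes summed, *Cat* went from 0.543 ± 0.0297 to 0.229 ± 0.0240 counts per count (SD, n = 4 each). Ratios among the *Sod* genes overlapped between genotypes, at 0.352 to 0.509 and 0.294 to 0.487 for *Sod1* over *Sod2*. These ratios reuse the *Cat* counts and so are descriptions, not further tests.

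**Figure D2:**
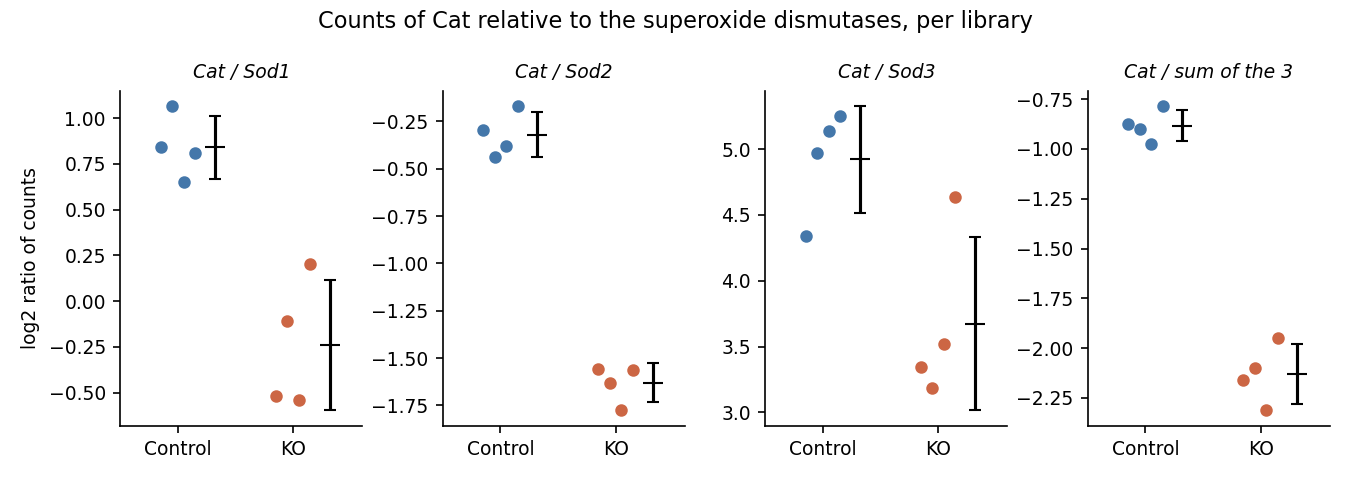
Log2 ratio of *Cat* counts to the counts of *Sod1*, *Sod2*, *Sod3* and their sum (y axis, each panel with its own scale) in control and NOX4-deficient (KO) libraries. Points are single libraries and black bars the mean ± SD of 4. The groups are apart for *Sod1*, *Sod2* and the sum, most tightly for *Sod2* (-0.32 ± 0.12 against -1.63 ± 0.10), and overlap for *Sod3*.

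Levels of different genes can only be set side by side per length, and the order of the 4 genes turned on which length was used. With the union of exons in GENCODE vM21 (2613 bases for *Cat*, 3970 for *Sod1*, 10008 for *Sod2* and 3738 for *Sod3*), *Cat* was the highest of the 4 in all 8 libraries, at 78.4 ± 6.17 CPM per kilobase in control and 31.6 ± 4.10 in NOX4-deficient mice (SD, n = 4 each). On that scale *Sod1* (28.8 ± 1.77 in control) and *Sod2* (25.6 ± 3.15) changed places between libraries, with *Sod2* above *Sod1* in 3 of 8. *Sod3* was the lowest in all 8, at 1.88 ± 0.684 CPM per kilobase in control.
With the principal transcript of the same annotation, *Sod1* is 641 bases long, since its longer annotated transcript retains an intron, and *Sod2* is 5861. *Sod1* was then the highest in all 8 libraries, at 178 ± 11.0 CPM per kilobase in control and 153 ± 29.1 in NOX4-deficient mice. *Cat* came next in all 4 control libraries, and it stood below *Sod2*, at 43.5 ± 4.41 CPM per kilobase, in all 4 NOX4-deficient libraries. Which length fits the transcripts in this muscle was not tested, and the genotype differences of single genes do not depend on it.

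**Figure D3:**
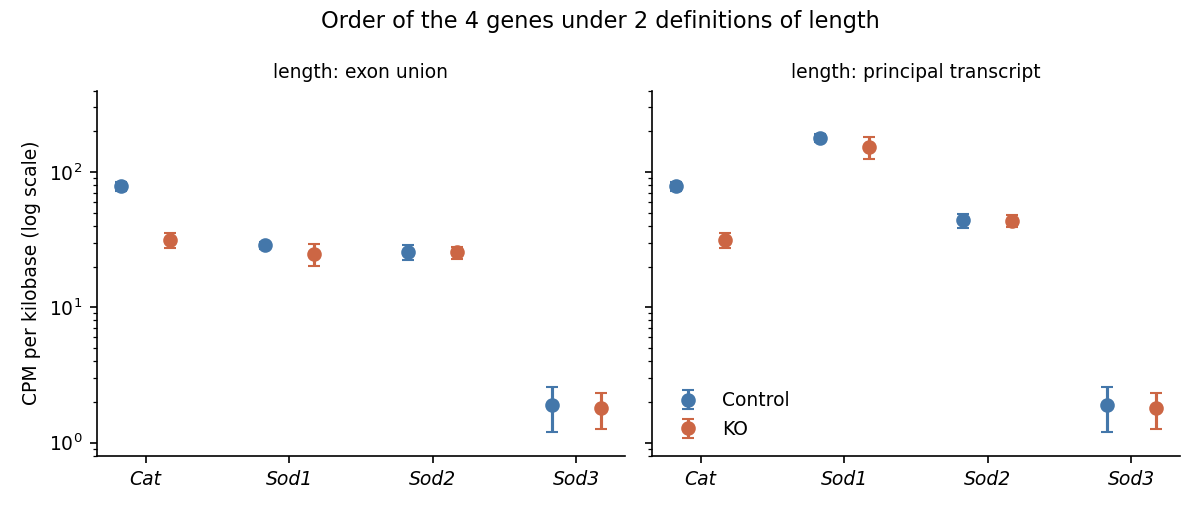
Level per length of the 4 genes (y axis, CPM per kilobase, log scale) in control and NOX4-deficient (KO) muscle, as mean ± SD of 4 libraries, with lengths from the union of exons (left) or the principal transcript (right). *Sod1* moves from 28.8 to 178 CPM per kilobase in control between the panels, whereas *Cat* and *Sod3* keep the same length and value.

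The other genes that remove peroxide were not called. Of 14 glutathione peroxidases and peroxiredoxins, 11 were tested and none was called by edgeR, DESeq2 or pydeseq2 (1 lower and 1 higher at an unadjusted p under 0.05 in edgeR). Their median log2 fold change was 0.02, against 0.01 over all rows tested, with 5 below and 6 above 0. *Gpx4*, which reduces lipid peroxides, stood at 281 ± 14.2 and 284 ± 54.3 CPM (SD, n = 4 each; log2 fold change 0.02). *Prdx3*, the mitochondrial peroxiredoxin beside SOD2, stood at 167 ± 12.4 and 167 ± 16.8 CPM, with a log2 fold change of -0.00. The values of both changed sign with some libraries or settings.
*Prdx1*, a cytosolic peroxiredoxin, had 233 ± 14.8 and 181 ± 19.2 CPM and groups that did not overlap. Its log2 fold change of -0.36 (standard error 0.10) is smaller than the 0.5 a call needs, and its adjusted p was 0.0556 in edgeR and 0.0127 in DESeq2. *Gpx8* also had groups that did not overlap, at 2.60 ± 0.617 and 3.91 ± 0.350 CPM (log2 fold change 0.59, edgeR adjusted p = 0.109). The log2 fold changes of *Prdx2* (0.15), *Prdx5* (0.15), *Prdx6* (-0.18) and *Gpx1* (0.12) had intervals that included 0. *Gpx1*, the main glutathione peroxidase of the cytosol, was low in this table, at 2.17 to 5.52 CPM in every library.
Summed over the 14 genes, the peroxidases had 1255 ± 101 CPM in control against 1155 ± 179 CPM in NOX4-deficient mice, and the 3 *Sod* genes 378 ± 29.8 and 360 ± 28.8 CPM (SD, n = 4 each). The number of peroxidase counts per *Sod* count was 3.12 to 3.49 in control and 2.80 to 3.53 in NOX4-deficient libraries, so the groups overlapped. *Cat* made up 14.1 ± 0.839% of the counts of *Cat* and the peroxidases together in control and 6.77 ± 1.34% in NOX4-deficient mice. These sums and shares use counts not divided by length. They can be set side by side between genotypes, but they do not give the make-up of the transcripts.

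The peroxidases are recharged by thioredoxin, glutathione and sulfiredoxin, and here several genes moved with *Cat*. Of 14 reductant genes tested, 4 were called lower and 1 higher, with a median log2 fold change of -0.05. *Srxn1*, which encodes sulfiredoxin and restores overoxidized peroxiredoxins, went from 137 to 220 CPM in control to 25.3 to 35.2 CPM in NOX4-deficient libraries (log2 fold change -2.53, standard error 0.16). *Gclm*, a subunit of the enzyme that limits glutathione synthesis, changed by -1.30 on the log2 scale (standard error 0.15), close to *Cat*. *Txnrd1*, the cytosolic thioredoxin reductase, had -0.98 (standard error 0.13), and *Gclc* (-0.63), the catalytic subunit beside *Gclm*, was the other gene called lower. *Txnrd2*, the mitochondrial thioredoxin reductase, stood at 16.4 ± 1.54 and 17.2 ± 1.36 CPM (edgeR adjusted p = 0.783). *Gsr*, which encodes glutathione reductase, had -0.56 (edgeR adjusted p = 0.0509), and it was called by DESeq2 (adjusted p = 0.017). Control replicate 4 had 59.4 CPM of *Gsr* against 33.0 to 39.4 CPM in the other controls, and without it the log2 fold change was -0.35 (edgeR adjusted p = 0.094). *Glrx*, a glutaredoxin, was the gene called higher (0.57, edgeR adjusted p = 0.0355), and it lost the call in 7 of the 8 fits that left out 1 library.

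**Figure D4:**
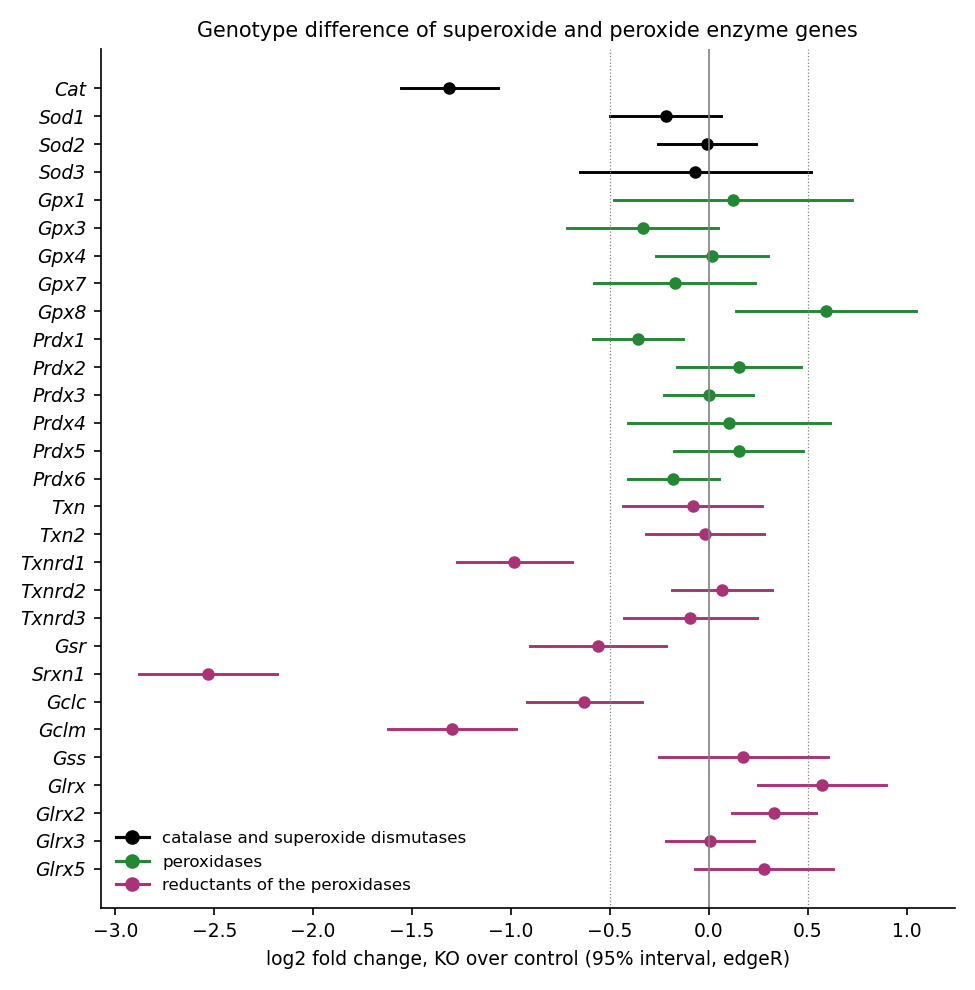
Log2 fold change, NOX4-deficient (KO) over control (x axis), of *Cat* and the *Sod* genes (black), the 11 peroxidases tested (green) and the 14 reductant genes tested (purple). Lines are 95% intervals from edgeR and dotted lines mark a log2 fold change of 0.5 in either direction. *Cat* (-1.31) stands left of all peroxidases, near *Gclm* (-1.30) and to the right of *Srxn1* (-2.53).

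SOD1 and SOD3 need copper and SOD2 needs manganese. Of 11 genes tested for the supply of these metals, 1 was called lower and 0 higher by edgeR (1 and 0 also at an unadjusted p under 0.05, in DESeq2 and in pydeseq2). *Ccs*, the copper chaperone of SOD1, had 7.45 ± 1.02 and 8.07 ± 1.24 CPM (edgeR adjusted p = 0.715), *Atox1* had a log2 fold change of 0.28 (edgeR adjusted p = 0.503) and the copper importer *Slc31a1* -0.04 (edgeR adjusted p = 0.897). The gene called lower was *Slc39a14*, a metal transporter that can import manganese, with 15.1, 15.9, 15.6 and 41.5 CPM in control against 7.94, 11.2, 7.62 and 9.91 CPM in NOX4-deficient replicates 1 to 4. Its groups did not overlap, but its log2 fold change of -1.26 (edgeR adjusted p = 0.0491) was -0.76 without control replicate 4, and 9 of 17 alternatives lost the call.

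Catalase resides in peroxisomes, and the genes of that organelle were measured beside it. None of 23 peroxins and peroxisomal membrane protein genes tested was called by edgeR, DESeq2 or pydeseq2 (1 was lower at an unadjusted p under 0.05), and their median log2 fold change was -0.00. *Pex5*, the receptor that imports matrix enzymes such as catalase, had 23.7 ± 1.22 and 23.1 ± 1.86 CPM (SD, n = 4 each). Of the peroxisomal oxidases, which release peroxide, 4 were tested and none was called by the 3 tools (1 lower at an unadjusted p under 0.05).
For SOD2 the same was done with 17 genes of the mitochondrial matrix and membranes. None was called by the 3 tools or reached an unadjusted p under 0.05, and their median log2 fold change of 0.02 lay beside the -0.01 of *Sod2*. Among 14 tested sources of superoxide and peroxide, *Nox4* included, none was called by the 3 tools. In edgeR 4 of them were lower at an unadjusted p under 0.05, and the list's median log2 fold change was -0.29.

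Of 18 transcription factors and coregulators that textbooks tie to *Cat* or *Sod2*, 2 were called lower and 0 higher by edgeR, with 5 lower and 2 higher at an unadjusted p under 0.05 and 4 called lower by both DESeq2 and pydeseq2. *Nfe2l2*, the regulator of antioxidant genes, had 69.5 to 71.4 CPM in control against 33.5 to 52.7 CPM in NOX4-deficient libraries (log2 fold change -0.65, edgeR adjusted p = 0.0112). *Ppard*, a nuclear receptor for fatty acids, had a log2 fold change of -0.58 (edgeR adjusted p = 0.0153). *Ppargc1a*, the coactivator of mitochondrial genes, spread from 54.2 to 161 CPM among controls and from 27.7 to 61.4 CPM in NOX4-deficient libraries, so the groups overlapped (log2 fold change -1.39, edgeR adjusted p = 0.0855). *Foxo3*, a forkhead factor, had -0.58 (edgeR adjusted p = 0.0624) and groups that did not overlap, and it was called by DESeq2 (adjusted p = 0.0234). *Foxo1* (-0.64) and the nuclear receptor *Ppara* (-0.99) had edgeR adjusted p-values of 0.539 and 0.377 and overlapping groups. Single libraries moved both values. *Foxo1* was -0.34, -0.42 and -1.11 without NOX4-deficient replicates 1, 2 and 4, and -0.39 without control replicate 4. *Ppara* was -0.38 without control replicate 2 and -1.63 without NOX4-deficient replicate 4. Over the list, 13 log2 fold changes were below 0 and 5 above. *Ppargc1b* (0.70, edgeR adjusted p = 0.117) and *Rxra* (0.26, edgeR adjusted p = 0.122) were higher with groups that did not overlap, and neither was called by the 3 tools.

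Likeness in pattern was measured as the root mean square difference of log2 CPM, each gene centered on its own mean over the 8 libraries, against 6944 other genes with a mean of at least 10 CPM. This measure favours genes with changes of the same size, and it is a description with no test. Nearest to *Cat* were *Paat* (0.147), *Ankrd33b* (0.200), *Gabarapl1* (0.202), *Rcan1* (0.212) and *Alpk2* (0.230), and all 5 were called lower. *Gabarapl1* encodes an autophagy protein, *Rcan1* a regulator of the phosphatase calcineurin and *Alpk2* an atypical kinase. *Paat* had 39.9 ± 2.93 CPM in control against 18.9 ± 3.22 CPM in NOX4-deficient mice (SD, n = 4 each), and like *Cat* it was highest within that group in replicate 4.
The *Sod* genes had other neighbours. *Sod2* was followed within 0.0541 by *Ndufs1*, a subunit of respiratory complex I, then by *Hccs* (0.0597), which attaches heme to cytochrome c, and *Dlat* (0.0656), a subunit of the pyruvate dehydrogenase complex. All 4 genes had their highest value in control replicate 2 and their lowest in control replicate 4. *Sod1* was followed within 0.0366 by *Mrto4*, and then by *Kdelr1* (0.0607) and *Nop16* (0.0631), and in all 3, as in *Sod1*, NOX4-deficient replicates 2 and 4 were the lowest libraries of their group. *Mrto4* and *Nop16* act in ribosome assembly and *Kdelr1* in protein retention in the endoplasmic reticulum. Nearest to *Sod3* were *Tf* (0.123), which encodes transferrin, *Serping1* (0.175), which encodes the C1 inhibitor, and *Ccl11* (0.182), a chemokine gene. These 3 genes, like *Sod3*, were lowest in NOX4-deficient replicate 4, and none of the 9 neighbours of the *Sod* genes was called.

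**Figure D5:**
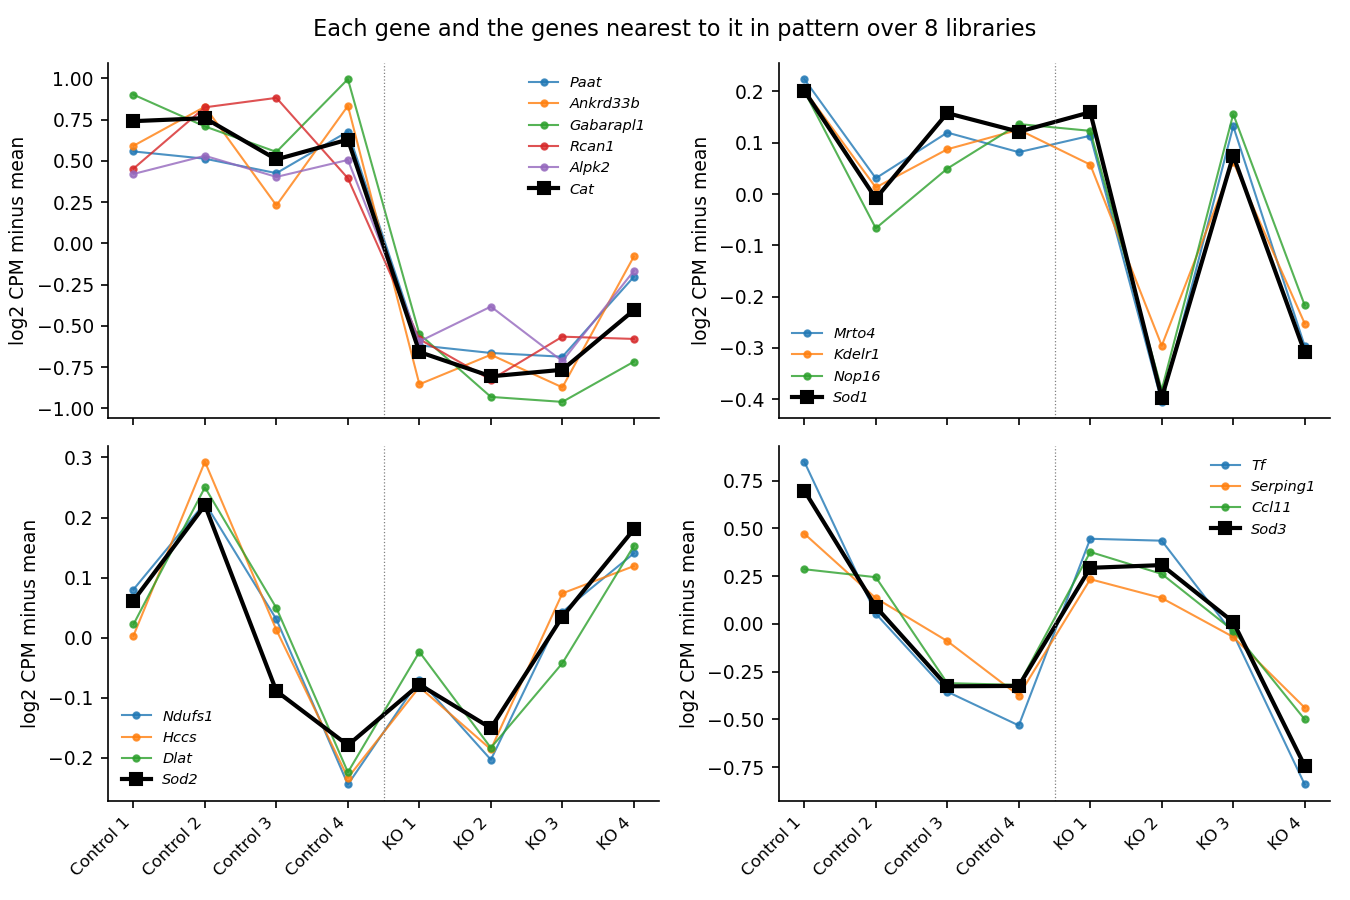
Log2 CPM minus the gene's own mean (y axis) in the 8 libraries (x axis) for *Cat*, *Sod1*, *Sod2* and *Sod3* (black squares) and the genes nearest to each in pattern (colored circles). Lines join the points of a gene for reading only, since replicates have no order, and the dotted line divides control from NOX4-deficient (KO). The 5 neighbours of *Cat* step down between genotypes, and the neighbours of the *Sod* genes follow single libraries.

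Other cell types of the muscle also carry these enzymes, and their markers were summed per library. Red blood cells, which are rich in catalase, left 47.6 to 52.7 CPM over 3 markers in control and 72.3 to 159 CPM in NOX4-deficient libraries. Of these 3 markers 2 were called higher, and over all 12725 rows tested 341 were. Macrophage and leukocyte markers summed to 18.5 to 46.4 CPM in control against 10.6 to 23.4 CPM in NOX4-deficient libraries, with 1 of 6 (*Cd163*) called lower. All 6 had a log2 fold change below 0, with a median of -0.68, and 3 were lower at an unadjusted p under 0.05 in edgeR. Adipocyte markers summed to 164 to 301 CPM and 160 to 210 CPM, with 0 of 7 called by the 3 tools and 0 at an unadjusted p under 0.05. Slow fiber markers, whose fibers hold more mitochondria, summed to 295 to 641 CPM in control against 386 to 1157 CPM in NOX4-deficient libraries, with 0 of 8 called by the 3 tools and 0 at an unadjusted p under 0.05. NOX4-deficient replicate 4, which had the most slow fiber signal, also had the most *Cat* (97.7 CPM) and *Sod2* (288 CPM) of its group. In vascular smooth muscle 1 of 6 markers (*Smtn*) and in endothelium 1 of 6 (*Vwf*) was called higher. No marker was at 0 in all 8 libraries, and the part of these cells in the levels of *Cat* and the *Sod* genes was not tested.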

How the data were processed

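RNA-seq was done on gastrocnemius of 4 control and 4 NOX4-deficient mice, 1 library per sample. Per the methods of the study, unstranded paired-end libraries were made from poly(A) RNA, and the nf-core pipeline for RNA-seq gave the counts. The submitters' processing notes name STAR and GRCm39, whereas the annotation and the settings used for counting are not given in the sources used here. The deposited values are raw counts per gene, not normalized, in 1 column per sample, and 0 columns of values were left without a sample.

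Groups came from the labels. Nothing in the labels says more on how replicates were taken, and the study gives 4 mice per genotype. The p-values set the genotype difference against the spread between these samples. The lowest chi-square per degree of freedom among 12 pairs of replicates was 13.3, so no pair was a duplicate. The counts were fitted with edgeR 4.0.16 in R 4.3.3 (TMM scaling, filterByExpr, robust glmQLFit, glmQLFTest, all 8 samples, genotype as the only term), with Benjamini-Hochberg adjustment over 12725 rows. Called genes had an adjusted p under 0.05 and changed by more than 0.5 on the log2 scale. The fits were tested on simulated data. 

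The 4 genes, the 8 pathway lists and the 8 marker lists were chosen with earlier results of these data known. Genes named were the 4 members, *Nox4* and up to 3 called genes in each direction per pathway list. Also named were a set of key antioxidant and regulator genes fixed by role, and the nearest genes in pattern (5 for *Cat* and 3 for each *Sod* gene). *Gclc*, *Gpx3*, *Gpx8*, *Txnrd2*, *Scaf4*, *Ppargc1b*, *Rxra*, *Myh4*, *Actn3*, *Fabp4*, *Cd163*, *Smtn* and *Vwf* were named after their values were seen. Lengths came from GENCODE vM21 and promoter windows from RefSeq, both on GRCm38, and no coordinate of the count table was used. Alternatives were DESeq2's size factors, library size only, other filters, a fit that was not robust, DESeq2 1.42.0, pydeseq2 0.5.4, replicate number as a block, odd against even replicate numbers as a term, other thresholds and each library left out. The length of the principal transcript was chosen after seeing the data. The authors' protein and qPCR measurements were not used here. 1 of the genes fixed by role is not reported here.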

Additional observations from a re-analysis of the deposited data

Results flagged for a closer look

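The search for single libraries took in *Cat*, the *Sod* genes, the ratios of *Cat* to them, *Nox4* and 24 genes named by role or as called. In these, 66 groups of 4 libraries were searched for a library far from the other 3. The measure was the share that its distance to the closest library takes of the whole range. The nearest genes in pattern and the genes named after their values were seen were not searched. In 7 groups this share was above Dixon's 95% critical value, where chance gives about 3.3 (1 in 20 groups). None of the 4 enzymes or of the ratios of *Cat* was among them.

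*Nox4* was lowest in NOX4-deficient replicate 1, at 1.74 CPM against 2.17 to 2.21 CPM in the others (share 0.918). NOX4-deficient replicate 2 was lowest in *Prdx3*, at 142 CPM against 173 to 178 CPM (0.854), and in *Prdx6*, at 72.2 CPM against 84.5 to 86.7 CPM (0.850). This library also had the least *Sod1* (79.9 CPM) and *Cat* (74.0 CPM) of all 8. Control replicate 4 was highest in *Slc39a14*, at 41.5 CPM against 15.1 to 15.9 CPM (0.970), and in *Foxo3*, at 69.7 CPM against 50.3 to 52.7 CPM (0.881). NOX4-deficient replicate 4 was highest in *Ppargc1a*, at 61.4 CPM against 27.7 to 33.0 CPM (0.841), and NOX4-deficient replicate 1 was lowest in *Gclm*, at 16.9 CPM against 18.9 to 19.2 CPM (0.886).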

How the results depend on the processing

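*Cat* stayed called under all 17 alternatives, with a log2 fold change from -1.39 to -1.26, and *Sod1*, *Sod2* and *Sod3* were called in none. The log2 fold change of *Sod2* was 0.00995 with at least 10 counts in every sample and -0.0688 to 0.0664 with each library left out, and that of *Sod3* was -0.19 to 0.20 with each library left out. Among the peroxidases, *Gpx4* was -0.00261 with the replicate block, -0.00237 with the term for odd and even numbers, and -0.0549 to 0.104 with each library left out. *Prdx3* was 0.00671 with library size only, 0.0180 with at least 10 counts in every sample and -0.0545 to 0.0684 with each library left out. The ranges with each library left out also spanned 0 for *Gpx1* (-0.11 to 0.33), *Slc31a1* (-0.122 to 0.0847) and *Pex5* (-0.0691 to 0.0126). The cause of these changes of sign was not tested. Other genes kept their sign but moved in size with each library left out. The log2 fold change ran from 0.13 to 0.46 for *Atox1*, 0.02 to 0.19 for *Ccs*, 0.06 to 0.27 for *Prdx2* and 0.07 to 0.29 for *Prdx5*.

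Over all rows, 443 were called lower and 341 higher. An adjusted p under 0.01 left 156 and 96, and leaving out each library gave 295 to 425 lower and 204 to 317 higher. The fewest in both directions came without control replicate 4. The level per kilobase of *Sod2* in control and NOX4-deficient mice was 43.8 and 43.5 CPM with either the longest or the principal transcript, and that of *Sod1* was 178 and 153 CPM with the principal transcript. *Gsr*, *Foxo3* and *Ppargc1a* gained a call and *Slc39a14* and *Glrx* lost one under some alternatives.

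Same-numbered replicates had correlations of their deviations from 0.0410 to 0.223, not all over 0.1, and 2 libraries correlated best with their own number, so the numbers were not taken to pair the samples. With the replicate block 543 rows were called lower and 390 higher, the log2 fold change of *Cat* was -1.32, and the adjusted p of *Sod1* was 0.183 (edgeR). *Gsr* (adjusted p = 0.0361 in edgeR) and *Foxo3* (0.00640) gained a call with the block. Depth limits *Sod3* and *Nox4*, which had at most 178 and 85 counts per library.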
